A study of Mus musculus with 11 samples.

Results

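The Id proteins and the TGF-beta and SMAD genes were described across alveolar macrophages of mice given PBS or CpG 1826, an oligonucleotide that activates Tlr9. The 9 genes are Id1, Id2, Id3, Smad3, Smad6, Smad7, Tgfb1, Tgfbr1 and Tgfbr2, out of 19505 genes with a symbol on the array. They were chosen by gene symbol, with the transcript cluster of the highest mean over all arrays standing for the gene, and each of the 9 had 1 cluster. The list was drawn up with earlier results of these arrays known, so the calls given for it are a description and not independent evidence. The mice were C57BL/6J females, 6 weeks old when bought, and each had a course of 5 injections spread over 10 days. Macrophages were recovered by bronchoalveolar lavage and purified by adherence. PBS was injected in the control group (n = 4), whose cells were taken on day 10. CpG 1826 was injected in both other groups, whose cells were taken on day 10 for the acute group (n = 3) and on day 30 for the resolution group (n = 4). No PBS group of day 30 was analysed here, so the course of CpG and the day of lavage cannot be told apart at resolution versus control. The acute and resolution groups had the same course of CpG and differed in the day of lavage. Time since the course and day of lavage cannot be told apart between them. The labels call the samples biological replicates and do not say whether each came from a single animal.

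TGF-beta binds a complex of the receptors Tgfbr2 and Tgfbr1, which phosphorylates Smad2 and Smad3, and these enter the nucleus with Smad4. BMPs act through related receptors on Smad1, Smad5 and Smad9, and the Id genes are known as direct targets of that branch. Id proteins have a helix-loop-helix domain and no DNA-binding region, so that they sequester E proteins and keep them from DNA. In the lung, autocrine TGF-beta is known to be needed for alveolar macrophages to develop and persist.

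Every level is log2(value + 1) of the deposited intensity. The arrays had median intensities between 51.39 and 57.001 and a background, the 90th percentile of 23 antigenomic probe sets, between 6.12 and 6.24. All 12 measured alveolar macrophage markers lay above background on every array, and their summed level ranged from 19.38 to 19.47 in control, 19.32 to 19.40 in acute and 19.33 to 19.41 in resolution arrays. Single markers of this list moved, with 3 of the 12 higher and 2 lower at resolution versus control, 2 higher and 1 lower versus acute and 0 called at acute versus control. Endothelial cells are known for high Id1, Id3 and Smad6, and their markers Pecam1, Kdr, Tek, Cldn5 and Emcn were below background on all 11 arrays, as were Tie1 and Eng. That makes 7 of the 9 listed markers. Of the others, Vwf was above background on every acute and resolution array and Cdh5 below it on all of these. In control arrays 1 of this pair was above background on every array and the other on some of them. The summed level of the endothelial list lay between 8.54 and 9.29 in control, 8.37 and 8.52 in acute and 8.47 and 8.60 in resolution arrays. Airway and alveolar epithelial markers differed between groups. Their summed level lay between 12.19 and 13.12 in control, 14.09 and 15.19 in acute and 11.09 and 11.89 in resolution arrays, with 4 of 11 tested markers higher in acute and 4 lower in resolution than in control, and 7 lower in resolution than in acute. Sftpb and Krt18 were below background on all arrays, and Sftpd and Krt8 on all control and resolution arrays. Of 7 tested markers of monocytes and interstitial macrophages 1 was higher in acute and 2 in resolution than in control, and 1 was lower in resolution than in acute. Of 6 tested neutrophil markers 2 were lower at resolution in both comparisons. Of 4 tested T and NK cell markers 1 was lower at resolution than in control and 2 than in acute, and 1 of 3 tested endothelial markers was lower than in control. Over all genes tested 9.6% were higher and 9% lower at resolution versus control, and 7.77% and 6.69% at resolution versus acute. At acute versus control these shares were 0.189% and 0.0494%. The part of the marker shifts in the values below was not tested. These are bulk samples, in which fewer cells of a type and less RNA per cell cannot be told apart.

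The upstream sequences of the 3 genes that passed the test at resolution and have an entry in the RefSeq promoter table (build GRCm38.p6) are shown to place these genes in the genome and to show their SMAD-type motifs. Each is the 250 bases before the annotated start, on the gene's own strand, 5′ to 3′. Capitals mark matches on either strand to GGCGCC, a GC-rich SMAD element, to CAGAC, a short SMAD element, or to the E-box CANNTG. Id2 lies on the minus strand with its window at chr12:25096093-25096342, Id3 on the plus strand at chr4:136143572-136143821 and Smad6 on the minus strand at chr9:64022060-64022309.
Id2: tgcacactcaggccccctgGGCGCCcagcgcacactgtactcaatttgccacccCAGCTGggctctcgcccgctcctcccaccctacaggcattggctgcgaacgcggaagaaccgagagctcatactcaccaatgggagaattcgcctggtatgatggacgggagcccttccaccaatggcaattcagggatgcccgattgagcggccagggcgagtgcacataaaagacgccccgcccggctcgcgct
Id3: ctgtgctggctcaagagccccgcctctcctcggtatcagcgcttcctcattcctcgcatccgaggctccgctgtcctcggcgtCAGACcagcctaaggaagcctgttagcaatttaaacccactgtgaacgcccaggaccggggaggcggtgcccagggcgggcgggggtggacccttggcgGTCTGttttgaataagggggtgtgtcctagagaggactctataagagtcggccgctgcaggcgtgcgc
Smad6: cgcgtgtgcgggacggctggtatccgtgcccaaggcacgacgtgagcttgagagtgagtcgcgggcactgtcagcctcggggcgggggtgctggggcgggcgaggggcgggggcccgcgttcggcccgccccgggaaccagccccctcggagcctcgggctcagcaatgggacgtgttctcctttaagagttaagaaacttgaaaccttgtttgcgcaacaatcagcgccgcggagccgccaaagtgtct
The Id2 window held 1 GGCGCC, from 231 to 226 bases before the start, and 1 E-box, from 196 to 191 bases before it. The Id3 window held 2 matches to CAGAC, the nearer ending 64 bases before the start, and the Smad6 window held none of these motifs. Among 32851 windows of the same length GGCGCC stood in 9.59%, CAGAC in 42.2% and the E-box in 66.2%. The core of the cyclic AMP element, TGACGTC, and the AP-1 motif TGANTCA stood in 2.78% and 6.75% of all windows and in none of the 3 windows. A match is a description of the letters and not a measured binding site.

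Id1 encodes an inhibitor of E proteins and is a classical target of BMP signalling. Its level was 9.93, 10.15, 10.40 and 9.66 in the control arrays, 10.50, 10.07 and 10.55 in the acute arrays and 12.42, 13.20, 12.72 and 12.66 in the resolution arrays. All 4 resolution arrays stood above all other arrays, while control and acute arrays overlapped. Id1 rose 6.56-fold at resolution versus control, by 2.71 ± 0.20 (SE; adjusted p = 3.49e-06 in limma), and 5.19-fold versus acute, by 2.38 ± 0.21 (SE; adjusted p = 2.46e-05 in limma). Its difference from control ranked 23rd in size among the 12143 genes tested. Acute minus control was 0.34 ± 0.21 (SE), with a 95% interval from -0.12 to 0.80.

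Id2, the Id gene best known in innate lymphoid and dendritic cells, moved the other way. Its level was 16.32, 16.41, 16.43 and 16.36 in control, 16.31, 16.14 and 16.24 in acute and 15.65, 15.32, 15.65 and 15.35 in resolution arrays. The 3 groups did not overlap, and the controls spread by only 0.05 (SD, n = 4). Between acute and control the nearest arrays stood at 16.31 and 16.32, and 10.1% of all genes tested did not overlap there (5.39% lower). Id2 fell 1.84-fold at resolution versus control, by 0.88 ± 0.11 (SE; adjusted p = 0.000173 in limma), and 1.66-fold versus acute (adjusted p = 0.00165 in limma). The acute arrays were lower than control by a small step that did not pass the test, at -0.15 ± 0.12 (SE).

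Id3, a further BMP-responsive Id gene, stood at 12.31, 12.26, 12.42 and 11.51 in control, 12.06, 12.67 and 12.45 in acute and 12.62, 13.11, 13.14 and 13.13 in resolution arrays. Control replicate 4 was the lowest array, and resolution replicate 1 lay inside the acute range. Id3 rose 1.83-fold at resolution versus control, by 0.87 ± 0.21 (SE; adjusted p = 0.0115 in limma), and by 0.67 when control replicate 4 was left out, still past the threshold. Resolution minus acute was 0.60 ± 0.23 (SE) and did not pass (adjusted p = 0.0978 in limma), though it passed without control replicate 4, which shares in the estimate of the spread (adjusted p = 0.0351). Id4, the remaining gene of the family, was below background on all 11 arrays.

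**Figure D1:**
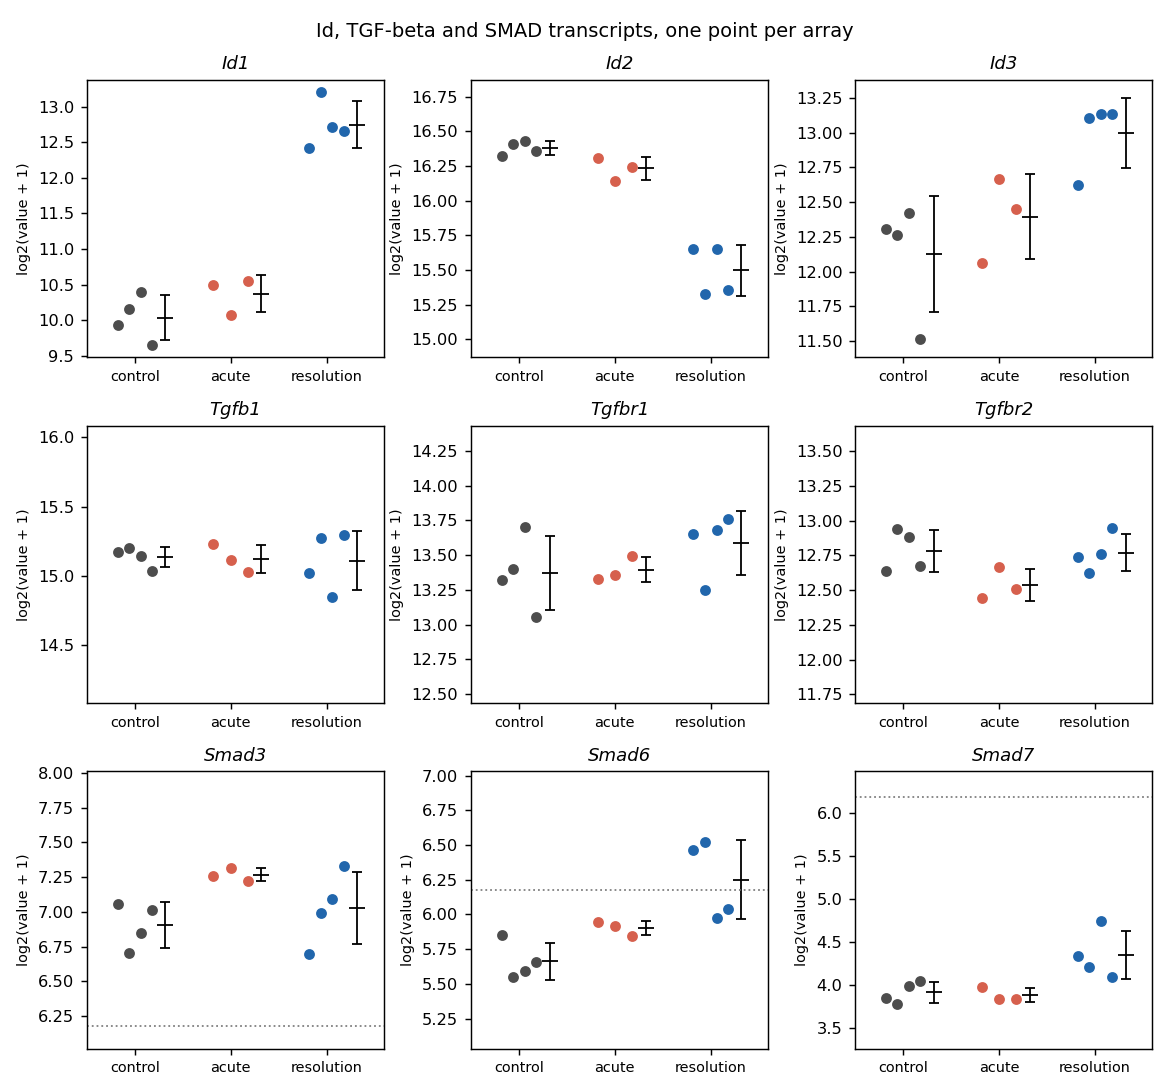
Levels of the 9 genes as log2(value + 1), 1 point for each of 4 control, 3 acute and 4 resolution arrays, with the group mean ± SD beside the points and the mean background of the arrays as a dotted line where the panel reaches it. Id1 separates the resolution arrays upward by more than 2 log2 units from the control mean and Id2 downward, while Tgfb1 overlaps in all groups.

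Tgfb1, the main TGF-beta ligand of leukocytes, did not separate the groups. It stood at 15.17, 15.21, 15.14 and 15.04 in control, 15.23, 15.12 and 15.03 in acute and 15.02, 15.27, 14.85 and 15.29 in resolution arrays. The resolution arrays spread to both sides of the controls. Resolution minus control was -0.03, with a 95% interval from -0.29 to 0.23, and acute minus control was -0.01, with an interval from -0.30 to 0.27.

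Tgfbr1, the type I receptor kinase, ranged from 13.05 to 13.70 in control, 13.33 to 13.50 in acute and 13.25 to 13.76 in resolution arrays, and the groups overlapped. Its resolution minus control difference was 0.22 ± 0.15 (SE), with a 95% interval from -0.11 to 0.55. Tgfbr2, the type II receptor that binds the ligand first, ranged from 12.64 to 12.94 in control, 12.44 to 12.67 in acute and 12.63 to 12.95 in resolution arrays. Acute minus control was -0.24 ± 0.13 (SE; 95% interval -0.52 to 0.03), and resolution minus control was -0.01 ± 0.12 (SE; 95% interval -0.27 to 0.24). Neither receptor passed the test in any of the 3 comparisons.

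Smad3, which carries the TGF-beta signal to DNA, was dim but above background on every array. It stood at 7.06, 6.70, 6.85 and 7.01 in control, 7.26, 7.32 and 7.23 in acute and 6.70, 6.99, 7.09 and 7.33 in resolution arrays. All 3 acute arrays stood above all controls, by 0.36 ± 0.15 (SE), but 10.1% of all genes tested did not overlap between these groups (4.71% higher and 5.39% lower in acute arrays), and the difference did not pass (adjusted p = 0.496 in limma). Resolution minus control was 0.12 ± 0.14 (SE).

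The inhibitory SMADs were near or below background. Smad6, which damps the BMP branch and is itself its target, stood at 5.85, 5.55, 5.59 and 5.66 in control and 5.94, 5.92 and 5.84 in acute arrays, all below background. In resolution arrays it stood at 6.47, 6.52, 5.98 and 6.04, above background in replicates 1 and 2 only. Smad6 rose at resolution versus control by 0.59 ± 0.14 (SE; adjusted p = 0.0117 in limma), which against background is at least 1.06-fold. Smad7, the inhibitor shared by both branches, was below background on all 11 arrays, at 3.78 to 4.05 in control, 3.83 to 3.98 in acute and 4.09 to 4.74 in resolution arrays. It was removed by the filter on dim genes, and no fold is given.

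Of the 8 genes that passed the filter, 3 rose (Id1, Id3 and Smad6), 1 fell (Id2) and 4 did not pass the test at resolution versus control, where 18.6% of all 12143 genes were called (9.6% higher and 9% lower). The same 4 genes had groups that did not overlap, as had 22.7% of all genes (11.4% higher and 11.2% lower). At resolution versus acute Id1 rose and Id2 fell, and 14.5% of all genes were called (7.77% higher and 6.69% lower). The balance of that split turned with scaling, from 943 higher and 812 lower to 676 and 987 after median scaling and 685 and 1151 after quantile normalization. Id1 and Smad6 lay higher and Id2 lower without overlap there, as did 26.3% of all genes (13.5% higher and 12.9% lower). At acute versus control 0 of the 8 were called in limma, with 1 (Smad3) at an unadjusted p under 0.05, against 0.239% of all genes called (0.189% higher and 0.0494% lower) and 1099 genes at an unadjusted p under 0.05. Smad3 lay higher and Id2 lower without overlap at acute versus control, as did 10.1% of all genes (4.71% higher and 5.39% lower). The comparisons share arrays in pairs and are not independent of each other. The median difference of the 8 genes at resolution versus control was 0.17, beside 0.0035 over all genes tested, a median that holds differences of opposite sign.

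**Figure D2:**
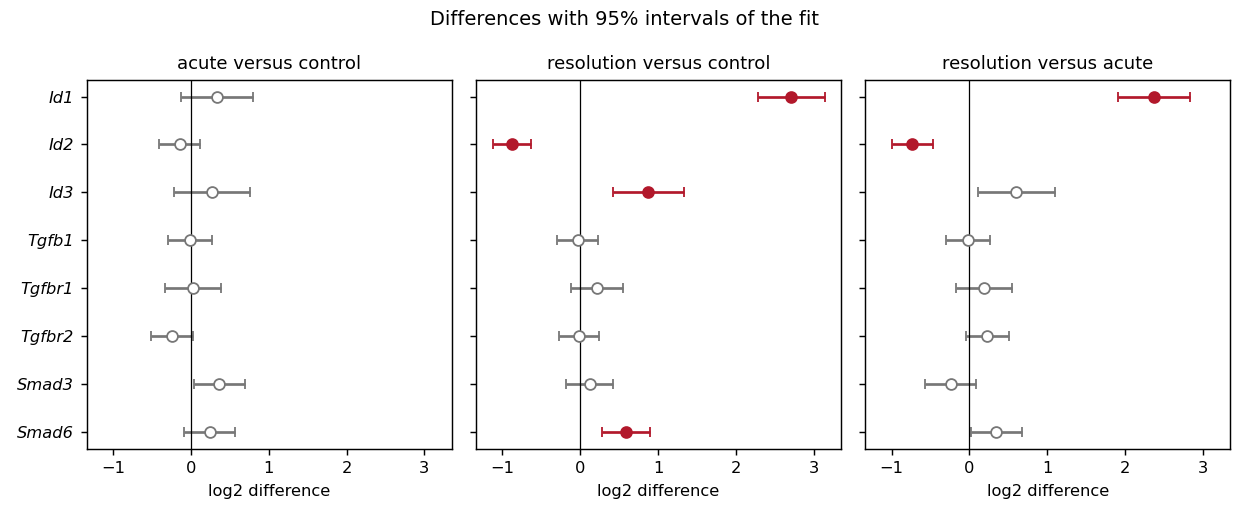
Log2 differences of the 8 tested genes with 95% intervals in the 3 comparisons, filled where the adjusted p was under 0.05. Id1 lies at 2.71 and Id2 at -0.88 at resolution versus control, while the intervals of Tgfb1, Tgfbr1, Tgfbr2 and Smad3 include 0 there.

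The wider pathway was read from 8 lists with 92 genes, of which 88 were on the array and 65 were tested. Leaving out the 9 genes above, 57 were tested, and at resolution versus control 9 rose and 3 fell (21.1%, beside 18.6% of all genes). At acute versus control 0 of these 57 were called in limma, with 2 at an unadjusted p under 0.05. At resolution versus acute 8 of the 57 rose and 4 fell (21.1%, beside 14.5% of all genes). The fallers include Itgae, which passed the filter only through the acute arrays, where it was highest. The median difference of the 57 was -0.12 versus control and -0.06 versus acute.

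Among ligands and genes of ligand activation 1 of 10 tested members rose and 0 fell at resolution versus control, with a median difference of -0.17. Over all genes tested 9.6% rose and 9% fell in this comparison. The riser was Tgfb2, a TGF-beta isoform, at 7.81, 7.92, 8.28 and 7.33 in control and 8.54, 8.78, 8.59 and 9.04 in resolution arrays, 1.87-fold higher (adjusted p = 0.00481 in limma). It was 2.01-fold higher than in acute arrays, which stood at 7.84, 7.78 and 7.57. Among 8 tested receptors (median difference 0.06) 1 rose and 0 fell, the activin type I receptor gene Acvr1b, 1.64-fold from a control range of 7.94 to 8.49 to a resolution range of 8.66 to 9.15 (adjusted p = 0.00402 in limma). Activin and BMP ligands and their antagonists were mostly dim, with 2 of 14 above background on any array, and 0 of 6 tested members were called (median difference -0.17). Inhba, the activin A subunit, stood at 6.90, 6.41, 8.08 and 12.21 in control, 9.13, 7.36 and 6.96 in acute and below background in all 4 resolution arrays. Resolution minus control was -2.82 ± 0.98 (SE; adjusted p = 0.0644 in limma). It was -1.55 with adjusted p = 0.0465 without control replicate 4, and the call was also made without control replicates 1 (-3.32, adjusted p = 0.0495) or 2 (-3.48, adjusted p = 0.0318).

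Of the 6 tested SMADs 2 rose and 0 fell at resolution versus control, Smad6 and Smad1, with a median difference of 0.14. Beside them 9.6% of all genes rose and 9% fell. Smad1, which transduces BMP signals, stood at 12.54, 12.52, 12.59 and 12.19 in control, 12.61, 12.65 and 12.56 in acute and 13.18, 12.90, 13.04 and 13.33 in resolution arrays. All 4 resolution arrays lay above the other 7, and Smad1 rose 1.57-fold versus control (adjusted p = 0.00339 in limma). Versus acute it rose 1.42-fold (adjusted p = 0.0270), a call that ended without acute replicates 1 (0.0755), 2 (0.0611) or 3 (0.0829) or resolution replicates 1 (0.0607) or 4 (0.0661). Smad2, Smad4 and Smad5 differed from control by 0.16, -0.07 and -0.11 at resolution and did not pass, and Smad9 was below background on all arrays.

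SMAD regulators and cofactors were called in both directions, with 3 of 17 tested members higher and 2 lower at resolution versus control. The median difference was -0.18, and 9.6% of all genes were higher and 9% lower. Ski, a corepressor that binds SMAD complexes, rose 2.55-fold from 11.28 ± 0.22 to 12.63 ± 0.02 (SD, n = 4 each; adjusted p = 1.86e-05 in limma). Its 4 resolution values lay between 12.61 and 12.64, a narrower spread than in control or acute arrays. Skil, a corepressor of the same family, rose 1.46-fold (adjusted p = 0.0107 in limma). Runx1, a partner of SMADs on DNA, rose 2.94-fold from 13.36 ± 0.18 to 14.91 ± 0.34 (SD, n = 4 each). Tgif1, a homeodomain corepressor of SMADs, fell 2.97-fold from 13.71 ± 0.27 to 12.14 ± 0.25 (SD, n = 4 each; adjusted p = 3.32e-05 in limma), and Crebbp, a histone acetyltransferase that SMADs recruit, fell 1.47-fold.

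Among TGF-beta target genes 2 of 12 tested members were higher (Ski and Skil) and 2 lower (Tgif1 and Cdkn2b) at resolution versus control. The median difference was -0.07, and 9.6% of all genes were higher and 9% lower. Ski, Skil and Tgif1 are also in the list of regulators, so that Cdkn2b is the 1 called gene not given above. Cdkn2b, an inhibitor of cyclin-dependent kinases that TGF-beta induces in many cells, stood at between 8.81 and 9.62 in control, 8.86 and 9.01 in acute and 7.68 and 8.08 in resolution arrays, 2.44-fold lower (adjusted p = 0.00018 in limma). Versus acute, 3 of the 12 rose and 4 fell, where 7.77% of all genes rose and 6.69% fell. The risers were Ski (2.26-fold), Skil (1.40-fold) and Tgfbi (1.28-fold), an extracellular matrix protein, and the fallers Tgif1 (3.13-fold), Cdkn2b (2.04-fold), the growth factor gene Vegfa (1.89-fold) and Itgae, which was below background in all arrays. Itgae passed the filter on dim genes only through the acute arrays, where it was highest (5.31 to 5.35, beside 4.85 to 4.98 in resolution arrays). That filter favoured a fall of Itgae, so its call adds no support. The call of Skil there (adjusted p = 0.0346) ended without acute replicates 1 (0.0781), 2 (0.117) or 3 (0.0642) or resolution replicates 1 (0.0789), 3 (0.0901) or 4 (0.0601), after median scaling (0.0568) and with only the groups compared (0.0595). That of Vegfa ended without acute replicate 3 (0.0520). The call of Tgfbi (adjusted p = 0.0484) ended without each array other than resolution replicate 4, with adjusted p of up to 0.134, and also with no filter (0.0716), after median scaling (0.141) and with only the groups compared (0.0917). BMP target genes were the Id genes and Smad6 as far as they were called. At resolution versus control 3 of 8 tested members were higher and 1 lower, with a median difference of 0.05, beside the same shares of all genes, 9.6% and 9%.

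**Figure D3:**
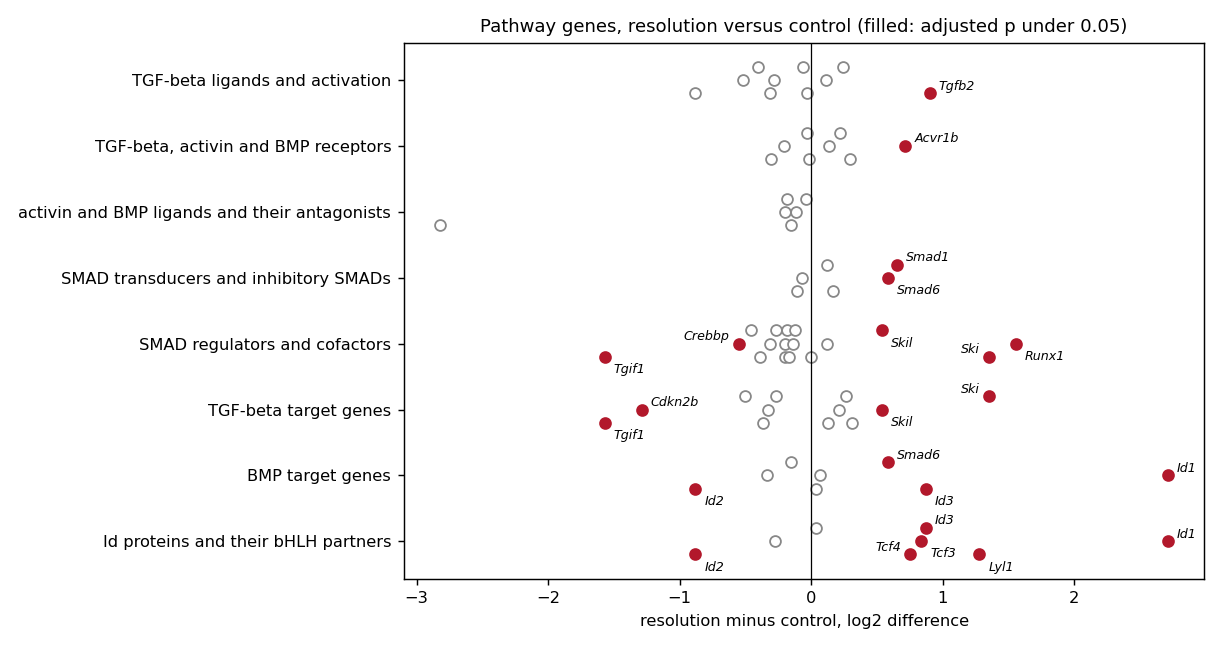
Resolution minus control on the log2 scale for every tested gene of the 8 lists, filled and named where the adjusted p was under 0.05, with genes of several lists shown in each. Called members lie on both sides of 0 in the lists of regulators, of TGF-beta targets, of BMP targets and of Id proteins with their partners, from Tgif1 at -1.57 to Id1 at 2.71.

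The partners of Id proteins were also measured. Of 8 tested Id and basic helix-loop-helix genes 5 rose and 1 fell at resolution versus control (median difference 0.80), among them Id1, Id3 and Id2 themselves, where 9.6% of all genes rose and 9% fell. Lyl1, a haematopoietic factor that pairs with E proteins, was below background in control and acute arrays and rose at least 1.5-fold to 6.75 ± 0.37 (SD, n = 4; adjusted p = 0.000786 in limma). The other two risers, named after their values were seen, are the E protein genes Tcf3 and Tcf4. Tcf3 stood at 6.56, 6.38, 6.24 and 6.16 in control and 6.92, 7.49, 7.04 and 7.25 in resolution arrays, at least 1.79-fold higher (adjusted p = 0.0021 in limma). Tcf4 rose 1.69-fold (adjusted p = 0.0376 in limma), with resolution replicate 3 at 11.24 and the other 3 resolution arrays between 10.01 and 10.47. Tcf4 lost that call when control replicate 1 (0.0721), 2 (0.0675), 3 (0.0925) or 4 (0.0503) was left out, and likewise for resolution replicates 1 (0.0636), 3 (0.0808) and 4 (0.0558). Tcf12, the remaining E protein gene, differed by -0.27 ± 0.15 (SE) and did not pass.

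**Figure D4:**
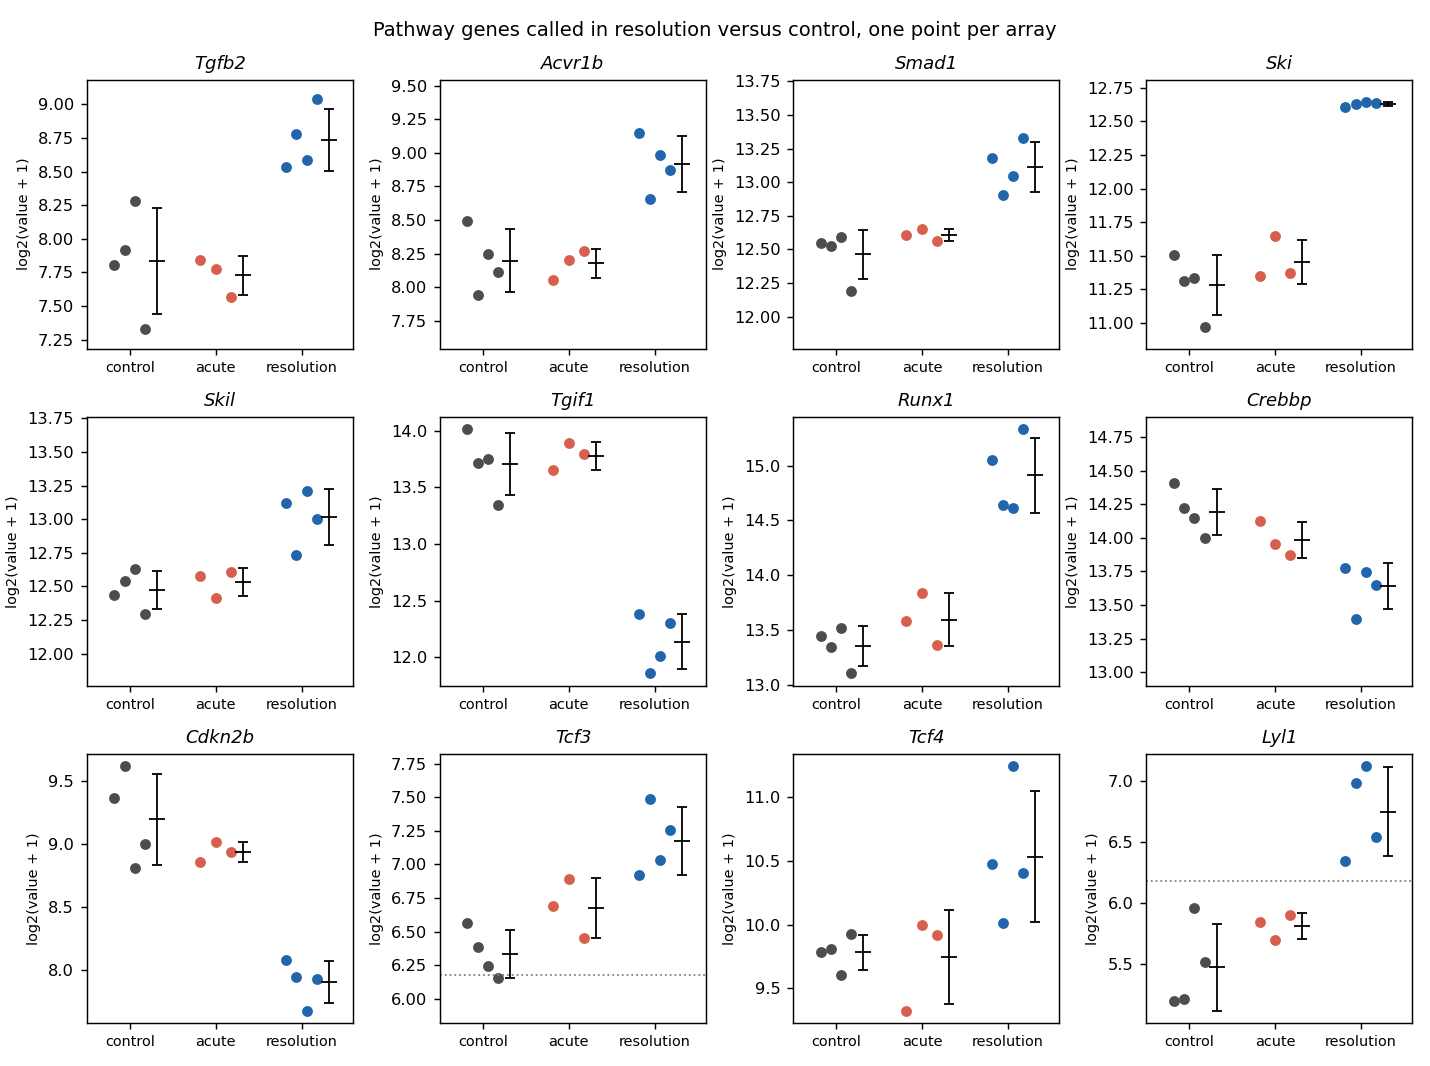
Levels as log2(value + 1) of the 12 pathway genes beyond the 9 described first that were called at resolution versus control, 1 point per array with the group mean ± SD and the mean background as a dotted line. In 9 panels the resolution arrays lie above all controls and in 3 panels (Tgif1, Crebbp and Cdkn2b) below them. The panels were picked by their calls in this comparison, so their separation is no further evidence. Over all genes tested 22.7% did not overlap (11.4% higher and 11.2% lower).

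The genes whose pattern over the 11 arrays was most like that of an Id gene were taken from all genes tested, by Pearson correlation, as a description. For Id1 they were Fes (r = 0.98, and 0.65 after subtracting group means), a tyrosine kinase of myeloid cells, Trim47 (0.98 and 0.72), C5ar2 (0.98 and 0.50), a receptor for complement C5a, Synpo (0.98 and 0.41) and the immediate early gene Fosb (0.98 and 0.46). For Id2 they were Txnrd1 (0.99 and 0.89), thioredoxin reductase, Plpbp (0.99 and 0.82), Gas2l3 (0.99 and 0.83), Hmox1 (0.99 and 0.81), heme oxygenase, and Osbpl8 (0.98 and 0.83). For Id3 they were Lsr (0.94 and 0.85), Zfp281 (0.94 and 0.88), Acap1 (0.94 and 0.90), H2-DMa (0.94 and 0.93) and Vgll4 (0.93 and 0.87). Among the genes themselves Id1 and Id2 had r = -0.95 over the 11 arrays but -0.16 after group means were subtracted, and Id1 and Id3 had 0.83 and 0.46. The first value of each pair holds the group differences, and the second leaves those out. The genes listed for Id1, Id2 and Id3 were picked by the first value among 12143 genes over the same 11 arrays. That choice can raise the second value too, so neither is independent support.

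Immediate early genes, which respond within minutes and also to the handling of cells, moved in the same comparison. At resolution versus control 9 of 15 tested members of that list rose and 3 fell, where 9.6% of all genes rose and 9% fell. Versus acute 8 of the 15 rose and 2 fell, beside 7.77% and 6.69% of all genes. Their summed level ranged from 17.54 to 17.87 in control, 17.55 to 17.88 in acute and 17.84 to 18.17 in resolution arrays, so that the groups overlapped slightly in this sum, which the brightest genes carry. The mean of the log2 levels of the same genes ranged from 9.86 to 10.11 in control, 10.02 to 10.23 in acute and 10.61 to 10.84 in resolution arrays, and the resolution arrays lay above all others. The part of this shift in the values of Id1, Id3 and Smad6 was not tested.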

How the data were processed

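Total RNA of 11 samples was hybridised to Affymetrix arrays, 1 array each. The intensities were made by the authors with Affymetrix Expression Console, per the submitters' processing notes, with version, summary algorithm and genome build not given in the sources used here. Intensities as deposited are linear, 1 for each of 28846 probe sets, and were used as log2(value + 1) without further scaling. A gene was kept where at least 3 arrays lay above their own 40th percentile, so that 12143 genes were tested. A model with a mean for each group was fitted to the 11 arrays with limma 3.58.1 (R 4.3.3), with 8 residual and 4.48 prior degrees of freedom, two-sided, with Benjamini-Hochberg adjustment over all genes tested and a threshold of 0.05. The procedure was tested on simulated data. Errors of differences are moderated standard errors, and p-values set a group difference against the moderated spread between these samples. Where the lower group did not exceed its mean background by more than its SD, folds run to the higher of background and that group's mean and are given as "at least". The number of arrays limits the precision. All 9 gene identifiers matched the RefSeq table. The promoter table (RefSeq, GRCm38.p6) held 7 of the 9 genes, and Id1 and Smad7 are named only. Named genes were the 9, up to 4 called members with the largest difference per list or else the one with the smallest p, and the 5 genes most like each Id gene. Further called list members were named after their values were seen. The 9 genes, the lists and the tests were chosen with earlier results of these data known. Alternatives were another pseudocount, other filters, 2 normalizations, a replicate block, other fits, and leaving out each array.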

Additional observations from a re-analysis of the deposited data

Results flagged for a closer look

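Resolution replicate 1 stood apart in Id3 at 12.62, with the nearest of the other 3 resolution arrays at 13.11. The rule took the gap to the nearest array over the range of the group, which was 0.95 here. Of 18 groups of 4 arrays examined for the 9 genes this was the 1 past that rule, and chance gives about 1 group in 20. Control replicate 4 in Id3, at 11.51 with the nearest control at 12.26, had a larger gap in log2 units but did not pass it.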

How the results depend on the processing

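The 6 calls among the 9 genes (Id1, Id2, Id3 and Smad6 at resolution versus control, Id1 and Id2 versus acute) kept direction and call in all 119 alternatives that gave a value. Smad6 had no value under the filter at the 60th percentile, where 3 of the genes were called. Over all genes, acute versus control gave 29 calls, 16 with only the groups compared, 51 with a variance trend and 5 to 29 when single arrays were left out (13 without control replicate 1, 18 without control replicate 2, 5 without acute replicate 2 and 9 without acute replicate 3). Resolution versus acute gave 1755 calls and 1065 to 1846 when single arrays were left out, the lowest without acute replicate 1. The split of higher and lower calls moved with scaling, from 1166 and 1093 to 893 and 1198 after median scaling and 1001 and 1259 after quantile normalization for resolution versus control, and from 23 and 6 to 25 and 3 and to 29 and 3 for acute versus control. Differences of genes without a call crossed 0. Tgfb1 at acute versus control was 0.00876 after median scaling, 0.0279 after quantile normalization and 7.82e-05 with the replicate block, and -0.0666 to 0.0346 without single arrays. At resolution versus control it was 8.49e-05 after quantile normalization and -0.0918 to 0.0572 without single arrays, and -0.0779 to 0.0711 versus acute. Without single arrays Tgfbr1 at acute versus control ranged from -0.0790 to 0.137, Tgfbr2 at resolution versus control from -0.0749 to 0.0384 and Fstl1 at acute versus control from -0.0533 to 0.366. Deviations from the group means of same-numbered arrays correlated at -0.12 to 0.09, and those of arrays with different numbers at -0.14 to 0.20. Not every array correlated best with its own number. These values show no pairing by replicate number, and the labels do not state one. A shared batch was not tested. With the replicate block the counts of calls were 25, 2120 and 1455, and 0, 4 and 2 of the 9 genes. The block ended the calls of Tcf4 at resolution versus control and of Smad1, Tgfbi and Itgae versus acute, and Inhba passed at resolution versus control (adjusted p = 0.0395). Inhba also passed versus control with a variance trend (0.0358), and versus acute with only the groups compared (0.0086) or without control replicate 4 (0.00858). Probe sets near background, as Smad6 and Smad7 were, limit what these arrays can show.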
